A study of Mus musculus with 6 samples.

Results

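The Ikaros family is a group of 5 zinc finger transcription factor genes, Ikzf1 to Ikzf5, and all 5 were found by symbol among the 16254 genes of the deposited count table. The family was chosen by its Ikzf4 values, since that gene had been noted as strongly different between the same EV- and sham-treated samples. The differences of the members between treatments are therefore given as a description, without a test. Eosinophils were grown from the bone marrow of C57BL/6 mice aged 6 to 12 weeks, with FLT3 ligand and stem cell factor followed by IL-5, and were used on culture day 12. Then 3 cultures received extracellular vesicles (EVs) from activated TH2 cells and 3 received sham control, which is medium without cells carried through the same EV purification, each for 24 h before poly(A) RNA sequencing. All 6 samples thus share the strain and the cytokines of the culture, and the labels number the cultures of each group 1 to 3. Whether a culture came from 1 mouse or from pooled marrow is not given in the sources used here.

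Ikaros family proteins bind DNA through a cluster of zinc fingers near their amino end, and pair with each other through further fingers near their carboxyl end. They recruit chromatin complexes, above all the NuRD nucleosome remodeling and deacetylase complex, and can silence or maintain genes depending on the site. The family is best known in lymphocytes, where Ikzf1 (Ikaros) is needed for lymphoid development, Ikzf3 (Aiolos) acts in B cells and helper T cells, Ikzf2 (Helios) marks many regulatory T cells, and Ikzf4 (Eos) acts with Foxp3 in regulatory T cells. Ikzf5 (Pegasus) is the most divergent member.

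The coding sequence of a finger shows how alike the members are and where reads can tell them apart, and is taken from the GENCODE vM21 transcripts (GRCm38). The second finger matched by the pattern for paired cysteines and histidines lies in the amino-terminal cluster that contacts DNA. It is shown for Ikzf1 to Ikzf4, since Ikzf5 has 4 matched fingers against 5 in the others and its own were not set against theirs, and capitals mark bases that differ from Ikzf4.
Ikzf1: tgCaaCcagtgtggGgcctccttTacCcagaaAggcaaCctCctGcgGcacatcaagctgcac
Ikzf2: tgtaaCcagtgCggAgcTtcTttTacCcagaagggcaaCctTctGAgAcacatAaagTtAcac
Ikzf3: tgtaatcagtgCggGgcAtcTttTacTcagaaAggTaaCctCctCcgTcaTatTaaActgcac
Ikzf4: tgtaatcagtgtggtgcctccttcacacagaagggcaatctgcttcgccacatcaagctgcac

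Of the 63 bases of this finger, 53 were the same in Ikzf1 and Ikzf4, while Ikzf2 and Ikzf3 each matched Ikzf4 at 48. Over stretches of 31 bases of whole transcripts, the members hardly overlapped with each other. Of the 31-base words of Ikzf4, 0.932% also occurred in another gene, and 3 of its 6118 words occurred in another member. No word of Ikzf1 and at most 1.12% of those of Ikzf2 and Ikzf3 were shared. For Ikzf5 the share was 82.7%, nearly all of it with Pstk, which is annotated on the opposite strand across the same locus. Whether the counting used strand is not given in the sources used here, so that reads of Ikzf5 and Pstk may not have been told apart. Normalized counts of Pstk were 128.9 ± 35.4 (SD, n = 3) with sham and 105.9 ± 18.4 (SD, n = 3) with EVs, well under the values of Ikzf5 below. If strand was not used, this split between the genes is itself uncertain, so it cannot show how many Ikzf5 reads came from Pstk.

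Estimated counts per library summed to between 23697620 and 37874426, and sham replicates 2 and 3 were the shallowest libraries. Eosinophil markers dominated, as the 11 listed genes, with the granule protein genes Prg2 and Epx among them, summed to between 939673 and 1184269 normalized counts in the sham-treated and between 1339945 and 1497828 in the EV-treated samples. Calls below rest on the quasi-likelihood test of edgeR across all genes, with a threshold of 0.01 on the adjusted p. Of these 11 genes, 7 were higher and 0 lower with EVs by that test, or 63.6% against 23.7% of all genes tested, and Prg2 was not among them. A normalized count is the rounded estimated count divided by a TMM size factor, set so that the factors of the 6 samples have a geometric mean of 1.

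Ikzf4 was the member that differed most between treatments (annotated at chr10:128630843-128645991, minus strand, GRCm38). Its reads numbered 15, 22 and 10 in sham replicates 1 to 3 and 714, 805 and 885 in EV replicates 1 to 3. As normalized counts these were 13.5, 26.96 and 12.2 in the sham-treated and 713.3, 690.0 and 770.3 in the EV-treated samples. The groups were far apart, with the lowest EV-treated sample above the highest sham-treated sample, sham replicate 2. The mean was 17.5 ± 8.19 (SD, n = 3) with sham and 724.5 ± 41.3 (SD, n = 3) with EVs, a log2 fold change (log2FC, EV over sham) of 5.38 with a standard error of 0.25. That difference ranked 31 among the 13498 genes tested, from the most increased down. In the sham-treated samples the transcript was near the limit of what the depth could resolve. The exact 95% Poisson intervals, which cover counting error only, were 8.4 to 24.7 reads in sham replicate 1, 13.8 to 33.3 in sham replicate 2 and 4.8 to 18.4 in sham replicate 3, and they overlapped. Without sham replicate 2, the log2FC was 5.80.

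Ikzf1, which encodes Ikaros itself, was abundant under both treatments (chr11:11685003-11772926, plus strand, GRCm38). It had 9734, 8953 and 9320 normalized counts in sham replicates 1 to 3 and 10130.3, 9893 and 9726 in EV replicates 1 to 3. The groups overlapped, since EV replicate 3 lay just under sham replicate 1. The means were 9335 ± 390.8 (SD, n = 3) and 9916 ± 203.4 (SD, n = 3), a log2FC of 0.09 (standard error 0.0551). Scaled by library totals alone, its log2FC was -0.06.

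Ikzf2, which encodes Helios, had 10316, 9665 and 9978 normalized counts in sham replicates 1 to 3 and 10109, 9640.1 and 9231 in EV replicates 1 to 3 (chr1:69531214-69687245, minus strand, GRCm38). The values of the groups were interleaved. The means were 9986 ± 325.7 (SD, n = 3) and 9660.2 ± 439.4 (SD, n = 3). The log2FC was -0.05 (standard error 0.0574), and -0.20 when scaled by library totals alone.

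Ikzf3, which encodes Aiolos, had 11035, 9161 and 9672 normalized counts in sham replicates 1 to 3 and 11084, 11093 and 12063 in EV replicates 1 to 3 (chr11:98464902-98546031, minus strand, GRCm38). The groups did not overlap, but sham replicate 1 came within the spread of the EV-treated samples. The means were 9956 ± 968.7 (SD, n = 3) and 11413 ± 562.3 (SD, n = 3), a log2FC of 0.20 (standard error 0.0754). It was 0.28 without sham replicate 1, and 0.05 when scaled by library totals alone.

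Ikzf5, which encodes Pegasus, had 983.9, 775.8 and 851.8 normalized counts in sham replicates 1 to 3 and 1122, 1148 and 1066 in EV replicates 1 to 3 (chr7:131388652-131410521, minus strand, GRCm38). Every EV-treated sample lay above every sham-treated sample, with sham replicate 1 again the closest. The means were 870.5 ± 105.3 (SD, n = 3) and 1112 ± 41.65 (SD, n = 3), a log2FC of 0.35 (standard error 0.101), and 0.20 when scaled by library totals alone. The plot of normalized counts by member shows Ikzf4 apart from the others.

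**Figure D1:**
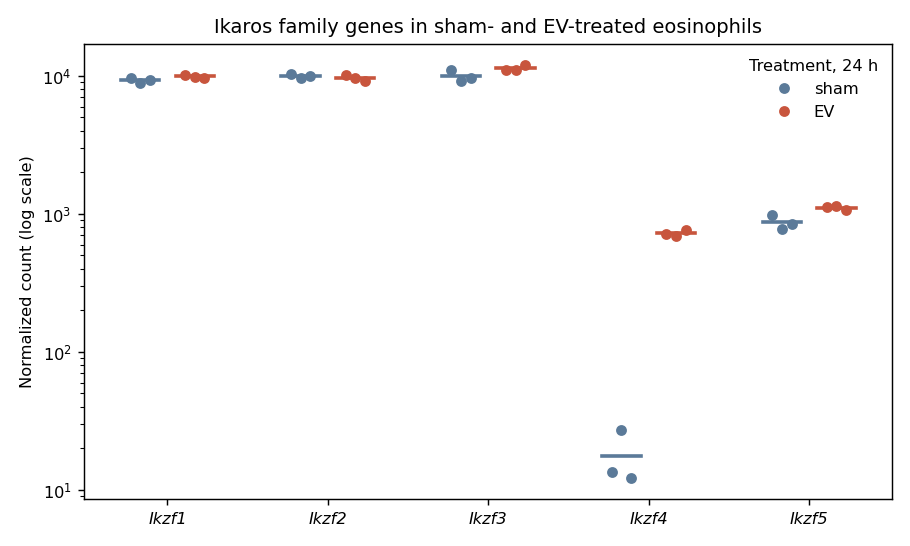
Normalized counts (vertical axis, log scale) of the 5 Ikaros family genes in the 3 sham-treated and 3 EV-treated samples; points are samples and horizontal bars group means. Ikzf4 lies between 12.2 and 26.96 with sham and between 690.0 and 770.3 with EVs, while the groups lie close together for each other member.

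All 5 members passed the filter on low counts, and each did so in all 3 sham-treated samples as well, so none entered the comparison through the EV-treated samples alone. In the fit across all genes 1 of the 5 was called, Ikzf4, upward, where 23.7% of all genes tested were called, 12.1% higher and 11.6% lower. With a log2FC of at least 1 in size as well, it was still Ikzf4 alone, where 9.45% were called, 3.1% higher and 6.35% lower. Without sham replicate 1, the sham-treated sample closest to the EV-treated ones for both, Ikzf3 and Ikzf5 were called too. In that fit 1833 of 13798 genes were called higher and 1698 lower. The groups did not overlap for 3 members, Ikzf3, Ikzf4 and Ikzf5, all higher with EVs, where 49.6% of all genes did not overlap, 24.8% being higher and 24.7% lower. Nothing is read from these counts, as the same comparison led to the choice of the family. The median log2FC was 0.20 over the members and -0.014 over all genes tested. The spread between replicates also differed between groups, and was smaller with EVs in 4 of the 5 members. Over all genes it was smaller with EVs too, so this is not particular to the members. The chi-square per gene between replicates was 8.37 to 9.94 with EVs and 13.45 to 31.83 with sham. The coefficient of variation of Ikzf4 was 46.7% among sham-treated samples, where it rests on 10 to 22 reads, and 5.7% among EV-treated samples. That of Ikzf5 was 12.1% and 3.75%, and Ikzf2 went the other way with 3.26% and 4.55%.

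**Figure D2:**
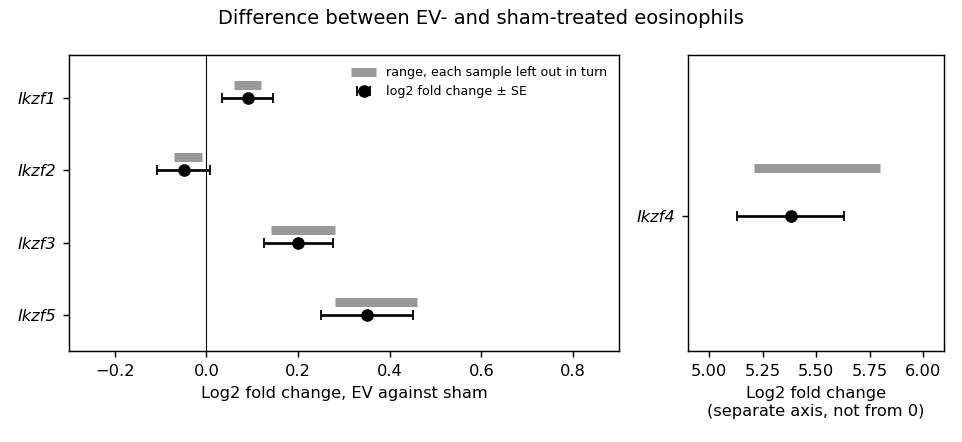
Log2FC of each member between EV- and sham-treated samples with its standard error (points and bars), and the range over fits that leave out each of the 6 samples in turn (grey bars); Ikzf4 is on a separate axis that does not start at 0. Ikzf4 stays between 5.21 and 5.80, whereas the other 4 members stay between -0.07 and 0.46.

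Levels of different genes were compared per kilobase of the longest coding transcript in GENCODE vM21. In sham-treated eosinophils, Ikzf3 was the highest member at 2722 ± 264.8 (SD, n = 3) normalized counts per kb. Ikzf1 followed with 1808 ± 75.7 (SD, n = 3) and Ikzf2 with 1076 ± 35.1 (SD, n = 3). Ikzf5 was far lower, at 196.5 ± 23.8 (SD, n = 3), and Ikzf4 lowest at 3.41 ± 1.59 (SD, n = 3). Neighbors in this order did not overlap in any sample. With EVs the order was the same, and Ikzf4, at 140.7 ± 8.02 (SD, n = 3) normalized counts per kb, was still under Ikzf5 at 251.0 ± 9.4 (SD, n = 3). The order of the upper 3 members depends on the length used. Per kilobase of coding sequence, Ikzf3, Ikzf2 and Ikzf1 had 6533 ± 635.7, 6245 ± 203.7 and 5806 ± 243.1 (SD, n = 3 each) with sham, so that Ikzf2 and Ikzf1 changed places and Ikzf3 and Ikzf2 lay within each other's spread. Ikzf5 and Ikzf4 stayed lowest by either length.

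The 3 abundant members made up most of the family pool under both treatments, and Ikzf4 a small part of it. Its share of the summed normalized counts per kb was 0.0421%, 0.0959% and 0.0412% in sham replicates 1 to 3 and 2.14%, 2.10% and 2.28% in EV replicates 1 to 3. Ikzf3 held 46.8% ± 1.34 (SD, n = 3) with sham and 48.2% ± 1.80 (SD, n = 3) with EVs, and Ikzf1 held 31.2% ± 0.836 and 29.7% ± 0.868 (SD, n = 3 each). The share of Ikzf2 was 18.6% ± 0.66 with sham and 16.1% ± 0.856 with EVs (SD, n = 3 each), and its groups did not overlap. Nor did those of Ikzf5, with 3.38% ± 0.177 and 3.88% ± 0.20 (SD, n = 3 each). The shares depend strongly on the length used. Per coding length, Ikzf3 held 33.8% ± 1.26 with sham and 35.8% ± 1.76 with EVs, Ikzf2 held 32.4% ± 0.889 and 28.9% ± 1.21, and Ikzf4 held 0.0448% ± 0.0232 and 1.68% ± 0.0907 (SD, n = 3 each). By this length too the groups overlapped for Ikzf1 and Ikzf3 and did not for Ikzf2, Ikzf4 and Ikzf5. The pool itself summed to 5806 ± 396.2 (SD, n = 3) normalized counts per kb with sham and 6474 ± 93.0 (SD, n = 3) with EVs.

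**Figure D3:**
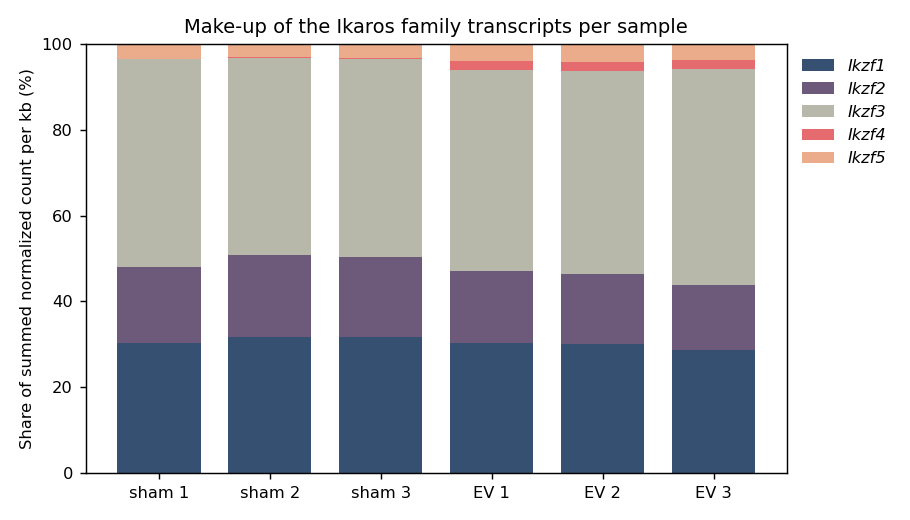
Share of each member (vertical axis, percent of the summed normalized count per kb of longest transcript) in the 3 sham-treated and 3 EV-treated samples. Ikzf1, Ikzf2 and Ikzf3 fill most of every bar, and the band of Ikzf4 is visible in the EV-treated samples, at 2.10% to 2.28%. Per coding length Ikzf2 and Ikzf3 would fill near equal bands, at 32.4% and 33.8% with sham.

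Ikzf4 is a T cell gene by its best known role and the EVs came from T cells, so markers of T cells and of other blood cells were set beside it. In bulk RNA, fewer cells of a type and less RNA per cell cannot be told apart. The 17 T cell markers in the table summed to between 573.1 and 1184 normalized counts in the sham-treated and between 292.7 and 359.5 in the EV-treated samples. Most of that difference was Cd28. The other 16 genes, a sum formed after the values were seen, came to 281.2, 476.7 and 375.5 in sham replicates 1 to 3 and 265.8, 294.9 and 306.4 in EV replicates 1 to 3, and the groups overlapped. Of the 6 T cell markers that passed the filter, 0 were higher and 1, the costimulatory receptor gene Cd28, was lower, or 16.7% against 23.7% of all genes. Cd2, Cd5 and Thy1 had no count in any sham-treated sample and at most 1.81 normalized counts on average with EVs, and Cd3e and Foxp3 were not analysed here. The 12 markers of B cells and plasmacytoid dendritic cells summed to between 968.6 and 1548 normalized counts with sham and between 424.7 and 436.3 with EVs, with 0 of 8 tested genes higher and 2, Blnk and Tcf4, lower, or 25% against 23.7% of all genes. Without Blnk and Tcf4, the other 10 summed to between 244.2 and 329.3 with sham and between 208.9 and 218.6 with EVs.

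Mast cell and basophil markers moved in the same direction as Ikzf4. The 7 measured genes summed to between 3885 and 5294 normalized counts with sham and between 9549.8 and 11552 with EVs, and 5 of the 6 tested genes were higher and 0 lower, or 83.3% against 23.7% of all genes. Ms4a2, which encodes the β chain of the high-affinity IgE receptor, had a log2FC of 2.64 (edgeR, adjusted p = 0.000124), and the basophil protease gene Mcpt8 one of 2.46 (adjusted p = 0.0018). Tpsb2 had no count in any sham-treated sample and 2.15 normalized counts on average with EVs, and was too low to be tested. The other 5 listed genes, the mast cell protease genes Mcpt4, Cma1, Tpsab1, Mcpt1 and Mcpt2, were not analysed here. Most of the sum came from Hdc, Cpa3 and Prss34, so it says little of mast cells apart from basophils. The summed eosinophil and progenitor markers were higher with EVs too. For progenitors this came from Gata2, with 2464 normalized counts on average with sham and 5187 with EVs. The other progenitor genes together were lower with EVs, and the median log2FC of the tested ones, Gata2 included, was -0.26. The order of samples within a group is not read for Ikzf4. Its sham-treated samples held 15, 22 and 10 reads with overlapping Poisson intervals, and its EV-treated samples lay between 690.0 and 770.3 normalized counts. The part of mast cells and basophils in the difference of Ikzf4 was not tested. Macrophage and dendritic cell markers, with 1 of 13 tested genes higher and 7 lower (61.5% against 23.7% of all genes), summed to between 41567 and 56004 normalized counts with sham and between 39904 and 44429 with EVs. Sham replicate 1 came closest to the EV-treated samples for Ikzf1, Ikzf3 and Ikzf5. Of the sham-treated samples, it had the lowest sum for the T cell, B cell, macrophage and progenitor lists. It had the highest for the mast cell, eosinophil and neutrophil lists. Sham replicate 2 stood at the opposite end in each of these lists. For Ikzf4, the overlap of the counting intervals leaves no sham-treated sample that can be called closest. Whether the make-up of the cultures bears on the members was not tested.

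**Figure D4:**
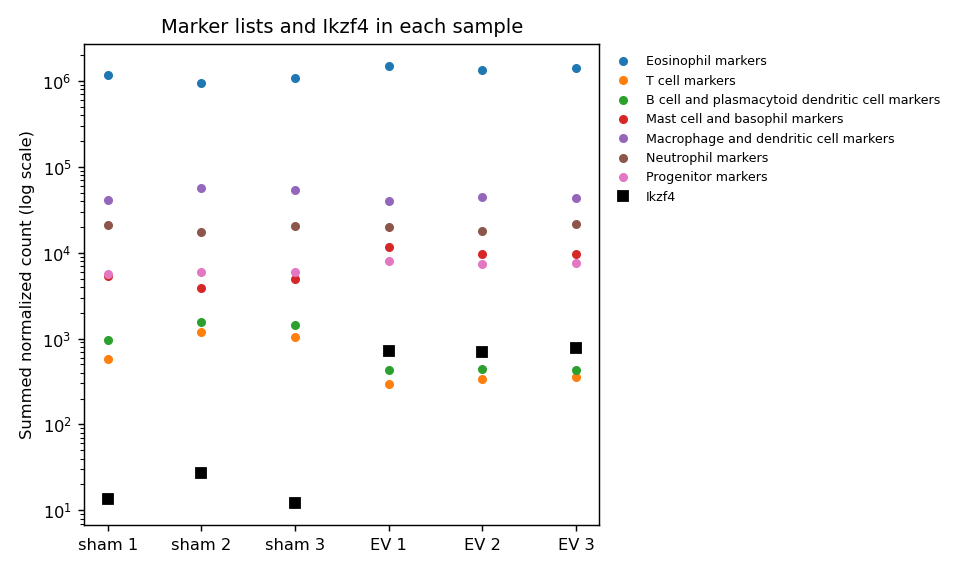
Summed normalized counts (vertical axis, log scale) of 7 marker lists and the normalized count of Ikzf4 in each of the 6 samples. Ikzf4 (squares) and the mast cell and basophil, eosinophil and progenitor lists are higher in the EV-treated samples. The rise of the progenitor list comes from Gata2, while its other genes together are lower. The T cell list, at 292.7 to 359.5 with EVs, is lower mostly through Cd28.

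The NuRD complex is the chromatin partner most closely tied to Ikaros proteins. Of its 15 subunit genes, 3 were higher and 1 lower with EVs, or 26.7% against 23.7% of all genes, with a median log2FC of 0.03. Chd4, the ATPase that copurifies with Ikaros, had 12063 ± 346.4 (SD, n = 3) normalized counts with sham and 12562 ± 254.2 (SD, n = 3) with EVs, a log2FC of 0.06 (adjusted p = 0.426), and of -0.09 scaled by library totals alone. Its relative Chd3 fell by 0.44 on the log2 scale (adjusted p = 0.00058). Chd5, another ATPase of this group, had 152.3, 62.5 and 70.47 normalized counts in sham replicates 1 to 3 and 457.6, 462.0 and 447.4 in EV replicates 1 to 3, a log2FC of 2.24 (adjusted p = 0.00024). Mbd2, which binds methylated DNA, and the scaffold gene Gatad2a rose by log2FC values of 0.41 and 0.40. The deacetylase genes Hdac1 and Hdac2 did not pass, with log2FC values of 0.31 (adjusted p = 0.0155) and -0.19 (adjusted p = 0.155). Hdac1 passed with DESeq2, in the fit blocked on replicate number and without sham replicate 3.

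Among 22 tested genes of the Sin3, CtBP and SWI/SNF complexes, which Ikaros proteins also contact, 3 were higher and 1 was lower, or 18.2% against 23.7% of all genes, with a median log2FC of 0.08. Sap30, a Sin3 subunit, fell by 1.95 on the log2 scale (edgeR, adjusted p = 0.00119), from 232.0 ± 101.5 (SD, n = 3) with sham to 59.7 ± 9.66 (SD, n = 3) with EVs in normalized counts. Ctbp1, a corepressor that binds Eos, had a log2FC of 0.19 (adjusted p = 0.0273) and passed with DESeq2. Arid4a, Arid1a and Arid2 rose by log2FC values of 0.33, 0.32 and 0.30, and none of these 3 passed when scaled by library totals alone. Arid4a and Arid2 also passed in only 1 of the 6 leave-one-out fits each. The count of 4 genes went down to 1 without EV replicate 3, and to 2 without sham replicate 2 or 3 or EV replicate 1 or 2.

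Cereblon, encoded by Crbn, is the receptor of the CRL4 ubiquitin ligase through which thalidomide-like drugs degrade Ikaros and Aiolos in human cells. Of 17 genes of this ligase and of the COP9 signalosome that controls it, 2 were higher and 1 lower, or 17.6% against 23.7% of all genes, with a median log2FC of -0.01. Dcaf1, another receptor of CRL4, rose from 770.3 ± 81.7 (SD, n = 3) with sham to 2483 ± 50.7 (SD, n = 3) with EVs in normalized counts, a log2FC of 1.69 (edgeR, adjusted p = 5.47e-07). Crbn itself fell by 0.30 (adjusted p = 0.00697). Its call was lost in the fit blocked on replicate number, in that with no filter and in 5 of the 6 leave-one-out fits. Dda1, a small subunit, rose by 0.52 (adjusted p = 0.00407) and passed in 2 of those 6 fits. Without any 1 of the EV replicates, Dcaf1 was the only gene of the list that passed. Of 8 genes for kinases and phosphatases known to act on Ikaros, Btk, a tyrosine kinase, passed with a log2FC of 0.76 (adjusted p = 5.99e-06). Without sham replicate 1, 2 of these 8 passed. Csnk2a1, a catalytic subunit of casein kinase 2, had a log2FC of 0.09 (adjusted p = 0.359), and of -0.06 scaled by library totals alone.

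**Figure D5:**
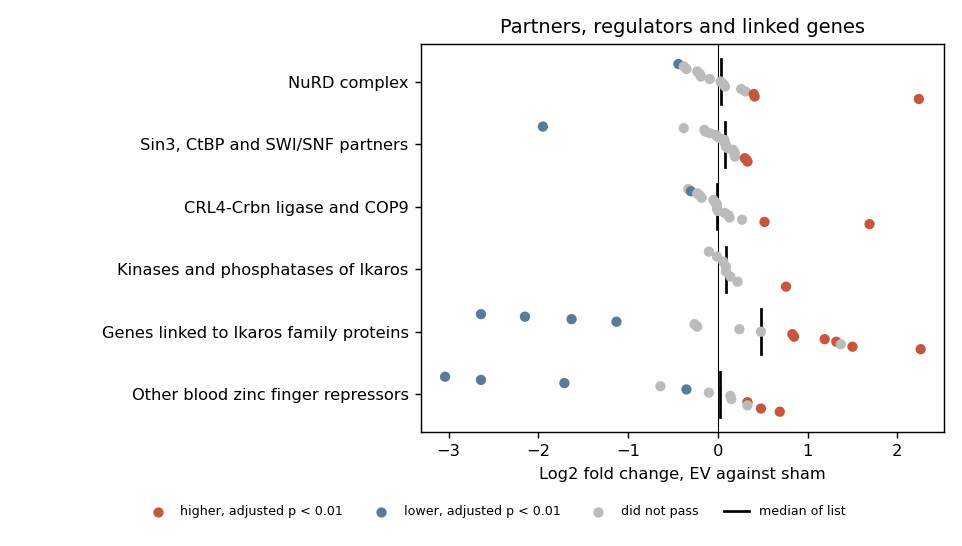
Log2FC between EV- and sham-treated samples of each tested gene in 6 lists; orange and blue points passed an adjusted p of 0.01 upward and downward, grey points did not, and black lines are list medians. The partner, ligase and kinase lists sit around 0 apart from single genes such as Chd5 at 2.24 and Dcaf1 at 1.69, while the lists of linked genes and of other repressors spread to either side.

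Genes linked to Ikaros family proteins in lymphocytes moved in both directions. Of the 28 listed genes, 15 could be tested, and 6 were higher and 4 lower, or 66.7% against 23.7% of all genes, with a median log2FC of 0.48. As the list was drawn up with results of these data known, this share is not independent evidence about genes of this kind. Bcl6, a repressor of germinal center B cells and T cells, was the most decreased, from 1558, 1668 and 1452 normalized counts in sham replicates 1 to 3 to 224.8, 262.3 and 264.6 in EV replicates 1 to 3, a log2FC of -2.64 (edgeR, adjusted p = 9.31e-08). Il7r, the IL-7 receptor chain, fell by 2.15 (adjusted p = 6.96e-05). Hes1, a target of Notch, fell by 1.63 (adjusted p = 0.00942) and passed in 1 of the 6 leave-one-out fits. Irf4, a transcription factor of lymphocyte activation, rose from 24.6 ± 4.98 (SD, n = 3) with sham to 117.9 ± 7.50 (SD, n = 3) with EVs in normalized counts, a log2FC of 2.26 (adjusted p = 0.000473). The other higher genes were the cell cycle and survival genes Bcl2, Ccnd3, Myc and Bcl2l1, with log2FC values of 1.32, 1.19, 0.85 and 0.83, and Cdkn1a, with 1768 normalized counts with sham and 4991 with EVs, and the other lower gene was Satb1, a chromatin organizer, at -1.13. Lymphoid targets such as Rag1, Rag2, Igll1 and Dntt were not analysed here.

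Among the 12 tested genes for other zinc finger repressors of blood cells, 3 were higher and 4 lower, or 58.3% against 23.7% of all genes, with a median log2FC of 0.02. The same limit on the choice of genes holds for this list. Trps1 carries carboxyl-terminal fingers of the Ikaros type and was the most decreased. It had 1100.2, 1393 and 1181 normalized counts in sham replicates 1 to 3 and 128.9, 132.0 and 183.6 in EV replicates 1 to 3, a log2FC of -3.04 (edgeR, adjusted p = 6.52e-07). Prdm1, which encodes Blimp-1, fell by 1.71 on the log2 scale (adjusted p = 0.000284). Gfi1b, a repressor of erythroid and megakaryocyte cells, rose by 0.69 (adjusted p = 0.00311) and passed in 3 of the 6 leave-one-out fits. The count of 7 genes was 3 without EV replicate 2 or EV replicate 3.

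The protein-coding genes nearest to Ikzf4 had smaller differences than Ikzf4 itself. Suox, which lies 23902 bases from Ikzf4 and encodes sulfite oxidase, rose from 1380.0 ± 149.4 (SD, n = 3) with sham to 2010.4 ± 93.2 (SD, n = 3) with EVs in normalized counts, a log2FC of 0.54 (edgeR, adjusted p = 0.000946). Rps26, a ribosomal protein gene 4095 bases away on the other side, had a log2FC of 0.26 (adjusted p = 0.0226), and passed with DESeq2 and in the blocked fit. Acadsb, an acyl-CoA dehydrogenase gene that starts 79 bases from Ikzf5 on the opposite strand, rose by a log2FC of 0.69 (adjusted p = 5.12e-05), against 0.35 for Ikzf5. Around Ikzf3, whose human counterpart lies in a known asthma susceptibility locus, Grb7 and Zpbp2 had log2FC values of 0.44 (adjusted p = 0.0445) and -0.45 (adjusted p = 0.434).

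The profile of Ikzf4 over the 6 samples was compared with those of 13313 other genes by the root mean square difference of log2 CPM, each centered on its own mean. This ranking uses the difference between treatments, and 1021 genes correlated with Ikzf4 at a Pearson r above 0.95 over these 6 samples, so it is a description only. Socs1, a feedback inhibitor of cytokine signaling, was the most alike, with a difference of 0.169. It had 123.4, 174.0 and 82.6 normalized counts in sham replicates 1 to 3 and 4002, 4345 and 4661 in EV replicates 1 to 3, and sham replicate 2 was its highest sham-treated sample, as for Ikzf4. Bcl2a1a, a survival gene of the BCL2 family, followed at 0.237. It has near-identical copies in the mouse genome, so its counts are uncertain. Lama5, a laminin chain gene, was next at 0.344. Gm14400 and Clnk, an adaptor gene of immune receptor signaling, had no count in any sham-treated sample and were at least 18.8-fold and 21.5-fold higher with EVs, counted against a floor of 3 reads per sham-treated library. Their place in the ranking depends on the prior count of 2 used for log2 CPM.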

How the data were processed

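The 6 libraries came from bone marrow-derived eosinophil cultures, 3 given EVs and 3 given sham control. Group and replicate number came from the sample titles. The authors used FastQC and Cutadapt on the reads, Salmon to quantify genes and DESeq2 to compare groups. The submitters' processing notes name mm10, and versions, annotation and strand setting are not given in the sources used here. The values deposited for 16254 genes were estimated counts, not all of them whole, and normalized counts, a signal equal to the rounded count plus 1 over a size factor. A deposited table of the authors' own fold changes and p-values was not used.

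Estimated counts were rounded and fitted with edgeR 4.0.16 in R 4.3.3 (TMM, filterByExpr with a minimum count of 10, quasi-likelihood test, no covariate) over 13498 genes, with Benjamini-Hochberg adjustment over all of them and a threshold of 0.01. Standard errors are the log2 fold change over the square root of F. Alternatives were RLE scaling, library totals alone, no filter, DESeq2 1.42.0, limma 3.58.1 on the deposited normalized counts (log2, pseudocount 1), the replicate number as a block, and each sample left out. The fits were tested on simulated data. The earlier, stricter pass rules, on all changed genes and on all well-counted changed genes, were not met by edgeR, and the rule was then narrowed, after those outcomes were seen, to well-counted genes given the larger fold. The test therefore says little of how often smaller differences are found. Replicates differed beyond sampling noise, with a chi-square per gene of at least 8.37 in each pair. The labels call the cultures biological replicates, and p-values measure the spread between them.

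The members and gene lists were chosen with earlier results of these data known. Named by rule were the members, up to 4 genes with the largest change among those that passed in each partner list, 8 fixed partners, the nearest coding genes and the 5 profiles most like Ikzf4. Other genes named in a list were chosen after their values were seen. Shared words were sought on both strands of GENCODE vM21 transcripts. Zinc fingers were found by the spacing of paired cysteines and histidines in the translated coding sequence. The sequence of the last finger is not reported here.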

Additional observations from a re-analysis of the deposited data

How the results depend on the processing

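With 3 cultures a group, differences the size of those of Ikzf1, Ikzf2 and Ikzf3 are close to the spread between replicates, and at 10 to 22 reads in the sham-treated samples counting error bounds the fold of Ikzf4. Scaling by library totals alone moved the median of all genes from -0.014 to -0.163 and the share of higher genes among those called from 50.9% to 30.7%. Under it the log2 fold change was -0.06 for Ikzf1, reversed in sign, -0.20 for Ikzf2, 0.05 for Ikzf3 and 0.20 for Ikzf5, and 8 NuRD genes passed. With DESeq2, 2 kinase and phosphatase genes passed in place of 1.

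Across the leave-one-out fits, log2 fold changes ranged from 5.21 to 5.80 for Ikzf4, from 0.06 to 0.12 for Ikzf1, from -0.07 to -0.01 for Ikzf2, from 0.14 to 0.28 for Ikzf3 and from 0.28 to 0.46 for Ikzf5. The number of genes called over the whole table ranged from 2089, without EV replicate 3, to 3531. The counts ranged from 4 to 6 for NuRD, 1 to 5 for Sin3, CtBP and SWI/SNF, 1 to 2 for the CRL4 ligase, 1 to 2 for kinases and phosphatases, 9 to 10 for linked genes and 3 to 7 for other repressors. Per kilobase of coding length in place of transcript length, the levels with sham and with EVs were 5806 and 6167 for Ikzf1, 6245 and 6041 for Ikzf2, 6533 and 7489 for Ikzf3, 8.51 and 351.5 for Ikzf4, and 690.9 and 882.5 for Ikzf5.

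The correlations across genes of same-numbered samples' deviations from their group means were 0.117, 0.0846 and 0.0371. Those of samples with different numbers ran from -0.116 to 0.0487. All were small, and the main fit did not take the numbers as pairs. With the replicate number as a block, 3575 genes passed in place of 3204, and the log2 fold changes of Ikzf1 to Ikzf5 were 0.09, -0.05, 0.20, 5.39 and 0.36. EV replicates 1 and 2 each correlated best with the sham replicate of their own number. EV replicate 3 correlated slightly better with sham replicate 2, at 0.0487, than with sham replicate 3, at 0.0371. Whether the numbers stand for pairs is not settled by these values. Every value recomputed under these other settings was counted, those above included. Of them, 125 stayed within the spread between replicates or within 1.5 times the count, 28 moved further and 1 reversed. The 28 include the levels of the members per coding length, which had to rise because the coding length is shorter.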

Other observations

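Neutrophil and progenitor markers moved in both directions with EVs. Of 9 tested neutrophil genes, 2 were higher and 3 lower by the same edgeR test (55.6% against 23.7% of all genes), and the list summed to between 17419 and 20904 normalized counts with sham and between 18111 and 21658 with EVs. Ly6g, a neutrophil surface protein gene, rose by 2.65 on the log2 scale (adjusted p = 4.16e-08), while the granule gene Mmp8 fell by 1.68 and Camp fell by 2.02. Of 7 tested progenitor genes, 2 were higher and 2 lower (57.1%). The progenitor list summed to between 5663 and 5926 normalized counts with sham and between 7402 and 8076 with EVs. Gata2 alone had 2464 on average with sham and 5187 with EVs, and the other genes of the list together were lower with EVs. Gata2, a factor of mast cells, basophils and progenitors, rose by 1.07 (adjusted p = 3.58e-06), and Sox4 fell by 4.02 (adjusted p = 1.97e-05). These examples were chosen after their values were seen.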
